A study of Arabidopsis thaliana with 12 samples.

Results

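The comparison described here asks whether the 2 Arabidopsis lines of the series responded differently to high light. For each gene it takes the change from high CO2 to high light in cat2 gox2, minus the same change in cat2 gox1, and it uses 12 of the 12 libraries of the series. RNA was sequenced from pooled middle-aged leaves of 15 plants per library, all of the Columbia-0 background and 3 weeks old. Both lines carry cat2-2, a mutation of the main leaf catalase gene CAT2, so that loss is common to every group, and wild type and cat2-2 alone were not analysed here. The first line, cat2-2 gox1, also carries a mutation of GLYCOLATE OXIDASE 1 (GOX1), and the second, cat2-2 gox2, a mutation of GLYCOLATE OXIDASE 2 (GOX2). They are called cat2 gox1 and cat2 gox2 below. The high CO2 groups were taken where the plants had grown, at 3000 ppm CO2, 120 µmol photons per square metre per second and 75% humidity. The high light groups were moved for 3 h to 400 ppm CO2, 1200 µmol photons per square metre per second and 55% humidity. Light, CO2, humidity and elapsed time changed together and cannot be told apart, and "high light" stands for the whole change. Each of the 4 groups held 3 biological repeats.

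In photorespiration, glycolate made by the oxygenase reaction of Rubisco is oxidised in peroxisomes by glycolate oxidase, which releases hydrogen peroxide. Catalase removes that peroxide, so leaves short of CAT2 are known for strong stress responses once photorespiration is allowed. Heat shock proteins are chaperones that hold, refold or disaggregate damaged proteins, and they are induced by oxidative stress as well as by heat. The 2 oxidases are closely similar enzymes, and the design asks whether plants lacking one or the other respond alike.

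Between 19571516 and 25314811 reads per library were assigned to genes, and 18967 genes passed the filter on low counts. Levels are given as CPM, in which each count is divided by its library's TMM-scaled total. Antenna protein genes summed to between 37243.9 and 133344 CPM per library, while the 5 root markers had 26 counts in all 12 libraries together. The mutated genes were checked first. GOX2 stood, in replicates 1, 2 and 3, at 1199, 1179 and 932 CPM (high CO2) and 570.5, 653 and 451 CPM (high light) in cat2 gox1, and at 16.5, 16.8 and 16.8 CPM (high CO2) and 7.48, 122 and 6.98 CPM (high light) in cat2 gox2. The library labelled cat2 gox2 high light replicate 2 thus held far more GOX2 reads than the other cat2 gox2 libraries, though fewer than any cat2 gox1 library. Results that rest on it are given with and without it. GOX1 ranged over 238.2 to 284 CPM and 128 to 189.8 CPM in cat2 gox1 and over 1936 to 2197 CPM and 943 to 1043 CPM in cat2 gox2 (high CO2, then high light), with no overlap between the lines. CAT2 lay between 44.0 and 119.97 CPM in all 12 libraries. None of the 3 mutated genes passed the test of the difference of responses: the log2 difference was -0.31 (SE 0.21) for GOX1, -0.48 (SE 0.15) for CAT2 and 2.43 (SE 1.18) for GOX2, and the GOX2 value became -0.22 without the library labelled cat2 gox2 high light replicate 2. Reads of the similar GOX1 and GOX2 may have been counted for either gene.

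The difference between the lines was almost wholly one-sided. In 189 genes the response was higher in cat2 gox2 (0.996% of the genes tested) and in 8 it was lower (0.0422%), at an adjusted p under 0.05 in edgeR's quasi-likelihood test with Benjamini-Hochberg adjustment. The 197 genes together were 1.04% of those tested, whereas the light response itself passed for 52.1% of genes in cat2 gox1 and for 56.9% in cat2 gox2. At an unadjusted p under 0.05 the counts were 1398 higher and 524 lower. The median log2 difference of the higher genes was 1.44 (0.63 to 5.07), 158 of them differed at least 2-fold (0.833% of genes) and 43 at least 4-fold. The 8 lower genes had a median of -1.27 (-0.71 to -2.34), and 5 differed at least 2-fold (0.0264%). The median over all genes tested was -0.01.

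The number of genes called depended on single libraries and on the treatment of repeats. Without the library labelled cat2 gox2 high light replicate 2 it was 113. Other single omissions brought it to 101 and 114 (cat2 gox1 high CO2 replicates 1 and 2), 112 and 97 (cat2 gox1 high light replicates 1 and 3), 97 and 90 (cat2 gox2 high CO2 replicates 1 and 2) and 88 (cat2 gox2 high light replicate 3). With a term for each repeat within each condition, it was 432. Between 95.0 and 98.2% of the calls were in the higher direction under each of the 12 single omissions and both other scalings. The share was 94.7% without number 3 of every group and 92.3% with a term for each repeat. It was 88.2% with that term within each condition and 89.8% with DESeq2. Of the 197 genes, 81 were called in all 12 omissions, 79 of them higher.

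Under high CO2 the line difference passed in none of the higher genes. Their median log2 difference between the lines (cat2 gox2 minus cat2 gox1) was -0.03 there (-0.78 to 1.15), and after high light it was 1.49 (0.55 to 5.64). For the 8 lower genes the medians were 0.27 under high CO2 and -0.95 after high light. Over all genes, the line difference passed for 0.0158% of genes under high CO2 and for 6.55% after high light, with 5.27% higher and 1.28% lower in cat2 gox2. The high light libraries of the lines did not overlap in any of the 189 higher genes and in 7 of the 8 lower ones, against 15.8% of all genes with cat2 gox2 above and 12.2% with it below; the choice of genes used these libraries, so nothing is read from it. Under high CO2, 11 of the 189 did not overlap with cat2 gox2 above (3.62% of all genes) and 12 with it below (4.49%). These comparisons share their libraries with the difference of responses, so they are given side by side only. In 154 of the 197 genes both responses were positive and that of cat2 gox2 larger, with median log2 responses of 1.51 (cat2 gox1) and 3.18 (cat2 gox2); 140 of them rose past the threshold in both lines and 14 in cat2 gox2 alone. A further 31 had opposite signs, with medians of -0.31 (cat2 gox1) and 0.97 (cat2 gox2). In 4 genes the response was negative in both lines and smaller in size in cat2 gox2. The 8 lower genes split into 4 with a positive but smaller response in cat2 gox2 and 4 that were positive in cat2 gox1 and negative in cat2 gox2. Because the samples are whole leaves, fewer cells of a type and less RNA per cell cannot be told apart in any of these levels.

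**Figure D1:**
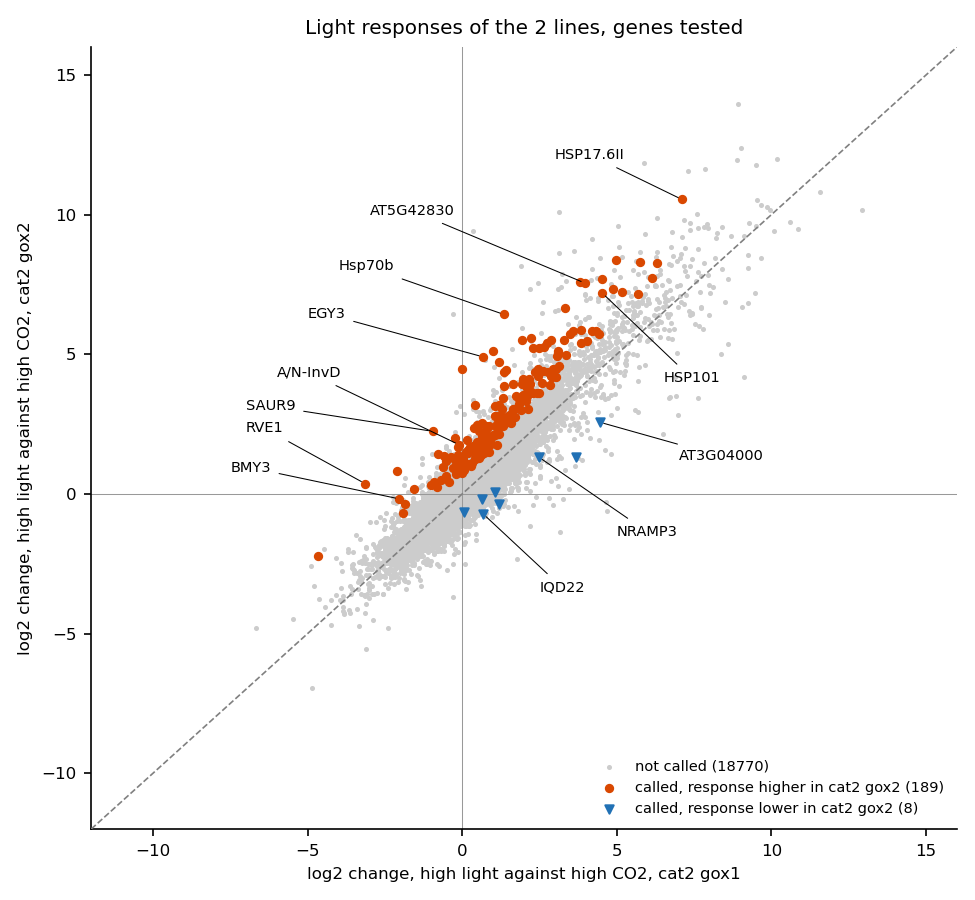
Fitted log2 response to high light of every gene tested in cat2 gox1 (horizontal axis) and cat2 gox2 (vertical axis), with the line of equal responses dashed. The 189 genes called higher lie above the line and the 8 called lower below it, and RVE1, SAUR9 and BMY3 stand on the left, where the cat2 gox1 response was negative.

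Small heat shock proteins and large chaperones had the highest medians of the gene lists. Of 3 heat shock lists with 46 tested members, 12 were called higher and none lower, against 0.996% of all genes tested, and their median log2 difference was 1.43. The 46 include HSP21 and AT1G52560, whose positive sign was fixed by the filter on low counts. Hsp70b, a chaperone of the HSP70 family, had the largest difference of the named genes. It was at 4.97, 5.17 and 6.55 CPM (high CO2) and 12.5, 13.3 and 16.8 CPM (high light) in cat2 gox1, and at 4.21, 3.93 and 5.99 CPM (high CO2) and 182, 668 and 365 CPM (high light) in cat2 gox2. Both lines rose, and every cat2 gox2 high light library stood at more than any cat2 gox1 library. The log2 responses were 1.35 (cat2 gox1) and 6.42 (cat2 gox2), a log2 difference of 5.07 (SE 0.56, adjusted p = 0.00162, edgeR). HSP70T-2, another HSP70 relative, showed the same order at lower levels, with high light means of 3.72 ± 0.328 CPM (cat2 gox1) and 59.1 ± 30.3 CPM (cat2 gox2; SD, n = 3) and a log2 difference of 4.13 (SE 0.53).

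Of the 19 large chaperones and co-chaperones, 7 were called higher and none lower, 17 were higher in all 3 repeats (20.4% of all genes), and the median log2 difference was 1.47. HSP101 encodes the disaggregase needed for acquired heat tolerance. It was at 8.23, 8.22 and 7.86 CPM (high CO2) and 170.0, 233 and 159.7 CPM (high light) in cat2 gox1, and at 9.1, 8.75 and 7.02 CPM (high CO2) and 1087, 1454 and 1084 CPM (high light) in cat2 gox2. The high CO2 libraries of the lines overlapped and the high light libraries did not, and the log2 difference was 2.66 (SE 0.26, adjusted p = 0.000892, edgeR). The others called were BAG6, a calmodulin-binding co-chaperone (2.73), MBF1C, a transcriptional coactivator of heat tolerance (2.21), CLPB4, a relative of HSP101 in mitochondria (1.93), and the peptidyl-prolyl isomerase ROF2 (1.53). Other members did not pass. HSP90.1, an inducible cytosolic chaperone, had high light means of 1243 ± 201 CPM (cat2 gox1) and 3011 ± 142 CPM (cat2 gox2; SD, n = 3), with a log2 difference of 1.39 (SE 0.37, adjusted p = 0.125, edgeR). For the constitutive chaperone HSC70-1 the log2 difference was 0.10 (SE 0.26). The count was 7 to 9 under single omissions, 7 without the library labelled cat2 gox2 high light replicate 2, and 4 without number 3 of every group.

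Small heat shock proteins, which bind unfolding proteins, gave the highest median of the lists, 3.00 over 13 tested members, all of them positive. Without the library labelled cat2 gox2 high light replicate 2 the median was 2.75, with 13 positive. Without number 3 of every group it was 2.25, with 11 positive. The rise passed the threshold for 10 members in cat2 gox1 and for 13 in cat2 gox2. HSP21 and AT1G52560 passed the filter on low counts only through the cat2 gox2 high light libraries. Their positive signs, in the difference and in the cat2 gox2 response, were thus fixed by the filter, and nothing is read from them. The median and the member counts above include both genes. The summed level of the list under high CO2 was 7.61 to 9.83 CPM (cat2 gox1) and 9.77 to 12.04 CPM (cat2 gox2). After high light it was 1092.9 to 1460.3 CPM (cat2 gox1) and 4831.5 to 6884.3 CPM (cat2 gox2), so the lines overlapped under high CO2 and not after high light. Only 4 members passed the test. AT1G59860, annotated as HSP20-like, was at 1.19, 1.02 and 0.913 CPM (high CO2) and 30.7, 34.1 and 33.6 CPM (high light) in cat2 gox1, and at 0.736, 0.639 and 1.13 CPM (high CO2) and 192, 352 and 305 CPM (high light) in cat2 gox2. Its log2 difference was 3.41 (SE 0.37, adjusted p = 0.00162, edgeR). HSP17.6II (3.44, SE 0.67), AT5G37670 (3.00, SE 0.61) and AT2G29500 (1.97, SE 0.39) were the other 3.

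Several small heat shock protein genes were nearly silent under high CO2, which leaves their response poorly measured. HSP17.6A had 3 counts in the cat2 gox1 and 5 in the cat2 gox2 high CO2 libraries together. After high light it stood at 32.5, 27.1 and 19.5 CPM in cat2 gox1 and 345, 627 and 464 CPM in cat2 gox2, with no overlap, yet its adjusted p for the difference of responses was 0.395 (edgeR). HSP21, the chloroplast member, reached 0.615, 7.71 and 3.33 CPM in cat2 gox2 after high light and no more than 0.119 CPM in any other library. The 4 calls became 1 without the library labelled cat2 gox2 high light replicate 2, and 0 without number 3 of every group. Each other single omission left 1 or 2, except that of cat2 gox2 high light replicate 1, which left 4. Several of these genes are similar in sequence, so reads may have been divided among them.

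Heat shock factors are transcription factors that regulate heat shock genes. Of 14 tested members 1 was called higher (0.996% of all genes), with a median log2 difference of 0.53. Without number 3 of every group that median was 0.27. The member called was HSFB2B, a class B factor, which stood at 13.2, 18.16 and 15.3 CPM in cat2 gox1 and 27.9, 37.9 and 33.4 CPM in cat2 gox2 after high light. The log2 difference was 1.08 (SE 0.22, adjusted p = 0.0437, edgeR), and it was not called without the library labelled cat2 gox2 high light replicate 2. HSFA2, the strongly inducible factor, had log2 responses of 7.42 and 8.40, and its difference of 0.98 (SE 0.50) did not pass. The 4 class A1 factors had log2 differences between -0.05 (HSFA1B) and 0.53 (HSFA1E), and none passed.

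**Figure D2:**
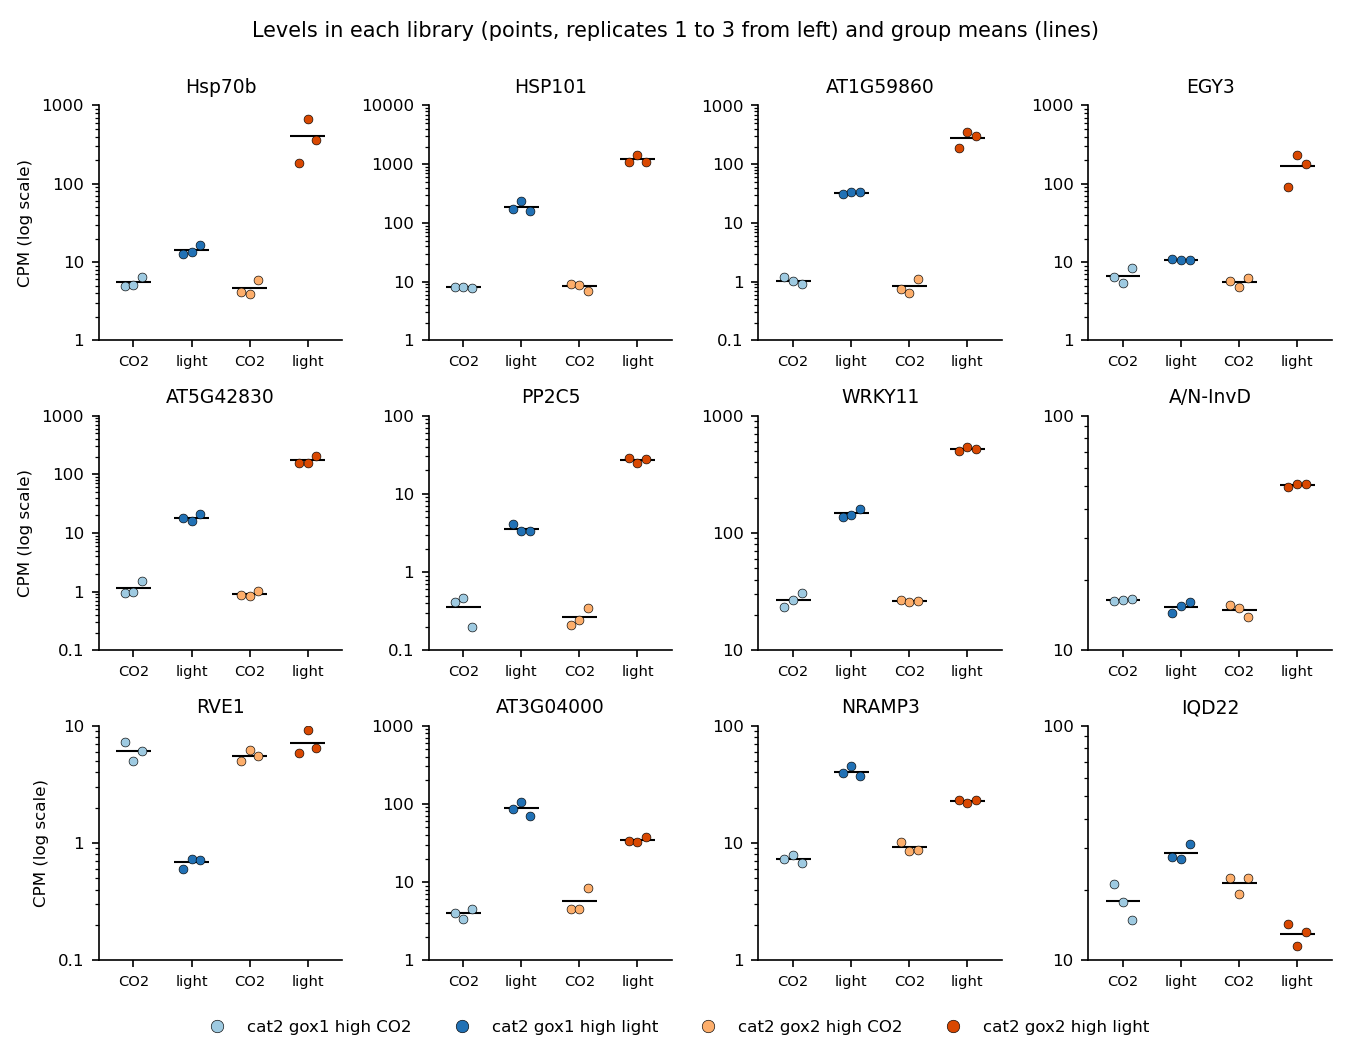
Level in CPM (log axis) of 12 called genes in each library, with replicates 1 to 3 from left to right and a line at the group mean. In the upper panels the cat2 gox2 high light libraries stand highest, in RVE1 the cat2 gox1 high light libraries stand lowest, and in AT3G04000, NRAMP3 and IQD22 the cat2 gox1 high light libraries stand highest.

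Outside the heat shock lists, the second largest of the named differences belonged to EGY3, a chloroplast membrane protein related to the EGY proteases. It was at 6.47, 5.45 and 8.3 CPM (high CO2) and 10.9, 10.7 and 10.6 CPM (high light) in cat2 gox1, and at 5.73, 4.82 and 6.19 CPM (high CO2) and 90.21, 231 and 181 CPM (high light) in cat2 gox2. Its cat2 gox1 response of 0.67 did not pass (adjusted p = 0.0708, edgeR), while cat2 gox2 rose by a log2 change of 4.91, and the difference was 4.24 (SE 0.42, adjusted p = 0.000958). AT1G54050, annotated as HSP20-like and not in the lists, differed by 3.51 (SE 0.46). AT5G42830, annotated as an HXXXD-type acyltransferase, was near 0.92 ± 0.1003 CPM (SD, n = 3) in cat2 gox2 under high CO2 and at 157, 157 and 205 CPM after high light, against 18.1, 16.1 and 20.8 CPM in cat2 gox1 after high light. Its difference was 3.58 (SE 0.30, adjusted p = 0.000657, edgeR), and it was called in all 12 single omissions and all 9 other alternatives.

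SDR5, a short-chain dehydrogenase, reached 2.44 to 3.82 CPM in cat2 gox1 and 28.2 to 37.1 CPM in cat2 gox2 after high light (3.78, SE 0.48). AT5G25450, annotated as a 14 kDa subunit of a cytochrome bd ubiquinol oxidase, reached 9.24 to 10.8 CPM and 51.3 to 95.6 CPM (3.19, SE 0.66), and was not called without the library labelled cat2 gox2 high light replicate 2. Both genes rose in both lines, and their high light libraries did not overlap.

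The next pair act in protein phosphorylation. PP2C5, a type 2C protein phosphatase, was at 0.414, 0.462 and 0.198 CPM (high CO2) and 4.08, 3.32 and 3.37 CPM (high light) in cat2 gox1, and at 0.21, 0.246 and 0.344 CPM (high CO2) and 28.8, 24.8 and 28.1 CPM (high light) in cat2 gox2. Its high CO2 libraries overlapped between the lines and its high light libraries did not, with a log2 difference of 3.303 (SE 0.39, adjusted p = 0.00278, edgeR). CIPK22 encodes a protein kinase regulated by CBL calcium sensors, and it differed by 3.35 (SE 0.50). Further calls, chosen after their values were seen, were the calcium sensors CML37 (2.55, SE 0.50) and CBL1 (1.70, SE 0.28).

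Among the 12 largest named differences, the upstream sequences of the 3 genes with the most W-boxes, the element bound by WRKY factors, are shown because the called genes include WRKY factors, together with that of NRAMP3, a gene of the opposite direction. Each is the 250 bases before the annotated gene start, 5′ to 3′ on the gene's strand, from the RefSeq TAIR10.1 genome, with the letters TTGACC and TTGACT and their reverse complements in capitals. They lie at chr2:16782116-16782365 on the plus strand (PP2C5), chr2:19352089-19352338 on the minus strand (SDR5), chr5:17176043-17176292 on the plus strand (AT5G42830) and chr2:9858779-9859028 on the minus strand (NRAMP3).
PP2C5: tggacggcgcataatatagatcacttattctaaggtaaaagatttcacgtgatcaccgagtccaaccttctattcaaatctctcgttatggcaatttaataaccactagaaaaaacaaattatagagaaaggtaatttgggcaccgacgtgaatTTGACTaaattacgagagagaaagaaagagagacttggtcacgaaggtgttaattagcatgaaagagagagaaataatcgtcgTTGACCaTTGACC
SDR5: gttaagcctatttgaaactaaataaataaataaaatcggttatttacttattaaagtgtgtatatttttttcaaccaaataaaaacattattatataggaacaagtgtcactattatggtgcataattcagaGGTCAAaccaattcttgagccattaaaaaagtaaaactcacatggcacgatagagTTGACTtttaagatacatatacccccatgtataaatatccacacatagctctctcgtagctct
AT5G42830: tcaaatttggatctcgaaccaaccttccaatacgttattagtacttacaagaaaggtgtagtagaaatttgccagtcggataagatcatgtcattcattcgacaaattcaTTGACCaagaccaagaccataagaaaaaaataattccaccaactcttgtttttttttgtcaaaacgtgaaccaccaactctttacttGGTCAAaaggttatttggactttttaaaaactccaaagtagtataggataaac
NRAMP3: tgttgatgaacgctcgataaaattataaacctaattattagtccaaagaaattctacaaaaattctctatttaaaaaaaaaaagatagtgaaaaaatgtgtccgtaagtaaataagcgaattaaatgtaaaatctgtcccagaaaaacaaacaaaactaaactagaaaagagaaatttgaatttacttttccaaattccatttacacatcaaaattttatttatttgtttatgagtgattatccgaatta
The window of PP2C5 held 3 W-boxes, those of SDR5 and AT5G42830 2 each, and that of NRAMP3 none. The first 3 genes were picked by these counts, so nothing is read from the contrast. Over windows from 250 bases before to 50 after the start, searched on both strands, a W-box occurred in 78 of the 189 higher genes (41.3%), in none of the 8 lower genes and in 32.6% of all 18953 genes with a window. The G-box CACGTG occurred in 11.1% of the higher genes and 8.94% of all, and the GCC-box GCCGCC in 3.70% and 2.73%. A heat shock element of 3 alternating GAA and TTC units, each 2 bases apart, occurred in 3 of the 189 (1.59%) and in 0.565% of all. None of these 3 genes was in the heat shock lists. Their matches began 25, 27 and 37 bases after the annotated start, so none lay upstream. Only exact matches were counted, so elements with a mismatch, another spacing or a place outside the window were missed. No test was run on these shares, and a match is a description of the sequence.

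WRKY factors regulate defence and senescence genes. Of 28 tested members, 4 were called higher and none lower, against 0.996% and 0.0422% of all genes. A positive difference was seen in 27, against 9299 of all 18967 genes, and the median was 0.72. Only 12 of the 28 were higher in all 3 repeats (20.4% of all genes). Without number 3 of every group 20 were positive, and the median was 0.58. WRKY11 was at 23.49, 26.8 and 31 CPM (high CO2) and 136, 143 and 161 CPM (high light) in cat2 gox1, and at 26.8, 26 and 26.3 CPM (high CO2) and 499.9, 536 and 518 CPM (high light) in cat2 gox2. Its libraries were close within each group, and the difference of 1.86 (SE 0.17, adjusted p = 0.000846, edgeR) was called in all 12 single omissions and all 9 other alternatives. WRKY30, an early responder to reactive oxygen, rose in both lines, from a range of 1.29 to 1.89 CPM up to 42.2 to 76.8 CPM (cat2 gox1) and from 0.737 to 1.03 CPM up to 121 to 144 CPM (cat2 gox2), and its levels did not overlap between the lines in either condition (2.06, SE 0.37). WRKY22, which acts downstream of immune MAP kinases, rose in cat2 gox2 to 9.82 to 15.6 CPM, while the cat2 gox1 response of 0.49 did not pass (difference 1.98, SE 0.35). WRKY6, which is also on the senescence list and was its only call among 14, differed by 1.31 (SE 0.27). The count was 3 or 4 without cat2 gox1 high CO2 replicate 3 or cat2 gox1 high light replicate 2 or 3, and 1 or 2 without any other single library, which includes 2 without the library labelled cat2 gox2 high light replicate 2. With total counts it was 1.

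In several other stress lists a single member passed, against 0.996% of all genes called higher. NAC13, a membrane-tethered factor of mitochondrial retrograde signalling, was the only call among 30 hydrogen peroxide and mitochondrial stress markers. It was at 121, 107 and 90.11 CPM in cat2 gox1 and 245, 246 and 253 CPM in cat2 gox2 after high light and at 11.3 to 15.3 CPM and 12.3 to 15.2 CPM under high CO2, with a difference of 1.15 (SE 0.21, adjusted p = 0.0281, edgeR). All 30 markers rose in each line, against 25.6% of all genes in cat2 gox1 and 27.7% in cat2 gox2. Their median log2 responses were 5.60 (cat2 gox1) and 5.58 (cat2 gox2), while the median of the gene-wise differences was 0.52. ERDJ3A, a co-chaperone of the endoplasmic reticulum, was the only call among 26 genes of the unfolded protein response, with 22.2 to 25.4 CPM in cat2 gox1 and 93.9 to 114 CPM in cat2 gox2 after high light (2.68, SE 0.40).

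NPR4, a salicylate receptor, was the only call among 24 salicylate genes, at 25.2, 28.2 and 24.7 CPM in cat2 gox1 and 47.5, 49.7 and 50 CPM in cat2 gox2 after high light (1.17, SE 0.19). ATG8E, a ubiquitin-like protein of the autophagosome, was the only call among 18 proteasome and autophagy genes, at 33.1, 32.4 and 17.9 CPM and 63, 67.4 and 78.3 CPM (1.49, SE 0.30). In both genes the high light libraries of the lines did not overlap. Over all genes tested, 0.996% were called higher. The salicylate list had a median log2 difference of 0.44, with 20 members positive. Without number 3 of every group that median was 0.005, with 12 positive. NAC13 and ATG8E were not called without the library labelled cat2 gox2 high light replicate 2.

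For some genes the fall in cat2 gox1 passed the test and the response in cat2 gox2 did not. RVE1, a MYB-like factor that links the circadian clock to auxin, was the only call among 20 clock genes (0.996% of all genes were called higher). It was at 7.24, 5.03 and 6.03 CPM (high CO2) and 0.602, 0.737 and 0.716 CPM (high light) in cat2 gox1, and at 4.94, 6.15 and 5.45 CPM (high CO2) and 5.79, 9.14 and 6.45 CPM (high light) in cat2 gox2. The 3 cat2 gox1 high light libraries stood below the other 9, which overlapped. RVE1 fell by 3.14 on the log2 scale in cat2 gox1 (adjusted p = 1.93e-06, edgeR), its cat2 gox2 response was 0.37 (adjusted p = 0.13), and the difference was 3.51 (SE 0.31, adjusted p = 0.000809).

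The next 3 genes were chosen after their values were seen. BMY3, annotated as a beta-amylase, fell in cat2 gox1 (-2.03, adjusted p = 1.27e-05, edgeR) and had a response of -0.18 in cat2 gox2, a difference of 1.85 (SE 0.27). SAUR9, an auxin-responsive small protein gene, fell in cat2 gox1 (-0.96) and rose in cat2 gox2 (2.24), a difference of 3.203 (SE 0.32). The gene with the smallest adjusted p of all was A/N-InvD, a neutral invertase that splits sucrose. It was at 16.3, 16.4 and 16.6 CPM (high CO2) and 14.5, 15.4 and 16.1 CPM (high light) in cat2 gox1, and at 15.67, 15.2 and 13.9 CPM (high CO2) and 49.6, 50.9 and 51 CPM (high light) in cat2 gox2. The 3 cat2 gox2 high light libraries stood far above the rest, the high CO2 libraries of cat2 gox2 stood slightly below those of cat2 gox1 without overlap, and the difference of responses was 1.86 (SE 0.12, adjusted p = 0.000166, edgeR).

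**Figure D3:**
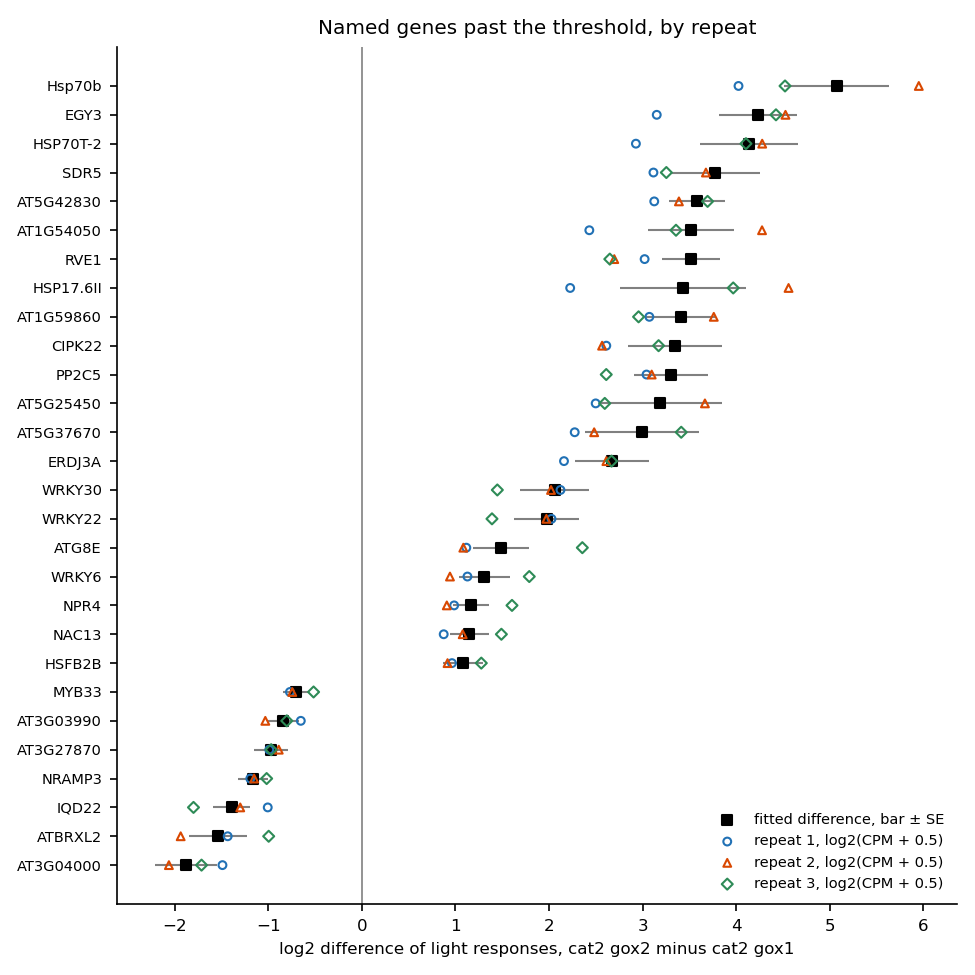
Log2 difference of light responses (cat2 gox2 minus cat2 gox1) of the 28 named genes past the threshold, as fitted over 12 libraries with its SE (squares) and within repeats 1, 2 and 3 from log2(CPM + 0.5) (open symbols). All 3 repeats lie on the same side of 0 for each gene, which the choice of these genes required for most of them, and Hsp70b and HSP17.6II have the widest spread between repeats.

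None of the 8 genes with a lower response in cat2 gox2 was on a gene list. AT3G04000, annotated as an NAD(P)-binding Rossmann-fold protein, was at 4.04, 3.37 and 4.56 CPM (high CO2) and 84.8, 107 and 70.2 CPM (high light) in cat2 gox1, and at 4.58, 4.52 and 8.35 CPM (high CO2) and 33.5, 32.9 and 37.2 CPM (high light) in cat2 gox2. It rose in both lines, the cat2 gox1 high light libraries stood above the cat2 gox2 ones without overlap, and the difference was -1.88 (SE 0.33, adjusted p = 0.0251, edgeR). Its neighbour AT3G03990, an annotated alpha/beta hydrolase, was also called (-0.84, SE 0.17). The annotated genes adjoin on the plus strand (chr3:1033579-1035237 and chr3:1035238-1036672), so reads at their border may have been counted for either.

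NRAMP3, a transporter that releases iron and manganese from the vacuole, was at 7.24, 7.85 and 6.75 CPM (high CO2) and 39.2, 45.4 and 36.9 CPM (high light) in cat2 gox1, and at 10.097, 8.6 and 8.79 CPM (high CO2) and 23.3, 22.1 and 23.2 CPM (high light) in cat2 gox2. It rose in both lines and less in cat2 gox2, and its high CO2 libraries also did not overlap, being higher in cat2 gox2. The difference was -1.16 (SE 0.16, adjusted p = 0.00713, edgeR). IQD22, a calmodulin-binding protein with an IQ domain, was at 21.2, 17.78 and 14.8 CPM and 27.5, 27 and 31.2 CPM in cat2 gox1 and at 22.3, 19.2 and 22.5 CPM and 14.2, 11.5 and 13.2 CPM in cat2 gox2, high CO2 first. It rose in cat2 gox1 (0.68) and fell in cat2 gox2 (-0.72), a difference of -1.39 (SE 0.20, adjusted p = 0.00909, edgeR). NRAMP3 and IQD22 were the 2 lower genes called in all 12 single omissions.

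The others were less stable. ATBRXL2, a BREVIS RADIX relative, differed by -1.54 (SE 0.31) and lies on chromosome 3 about 187 kb from the start of GOX2. AT3G27870, annotated as an E1-E2 type ATPase, rose in cat2 gox1 (1.05) and had a response of 0.08 in cat2 gox2, and the difference was -0.97 (SE 0.18). MYB33, a MYB factor of gibberellin signalling, fell in cat2 gox2 (-0.65) and had a response of 0.05 in cat2 gox1, a difference of -0.71 (SE 0.13). The eighth, AT1G53035, is annotated as an uncharacterized protein and was below the level set for naming, with a difference of -2.34 (SE 0.48). Without the library labelled cat2 gox2 high light replicate 2, AT3G04000, AT3G03990, ATBRXL2, AT3G27870, MYB33 and AT1G53035 were not called. Chromosome 3 held 4 of the 8 lower genes and 24 of the 189 higher ones, of 3768 genes tested there.

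Genes of jasmonate synthesis, signalling and output had mostly negative differences. Of 39 tested members none passed in either direction in edgeR's quasi-likelihood test, 13 had an unadjusted p under 0.05, DESeq2 called 3 lower and limma none, 3 had a positive difference, 24 were lower in all 3 repeats (16.8% of all genes) and the median log2 difference was -0.71. The median was -0.61 without the library labelled cat2 gox2 high light replicate 2 and -0.59 without number 3 of every group. Their median log2 responses were 1.84 (cat2 gox1) and 0.60 (cat2 gox2). PDF1.2, a plant defensin and marker of the pathway, was at 7.35, 7.57 and 10.6 CPM (high CO2) and 109, 16.8 and 53 CPM (high light) in cat2 gox1, and at 8.41, 14.9 and 35.2 CPM (high CO2) and 17.78, 14.7 and 20.1 CPM (high light) in cat2 gox2. The high light libraries of the lines overlapped, and the difference of -2.95 (SE 0.85) had an adjusted p of 0.166 (edgeR). The summed level of the list under high CO2 was 4731.3, 5284.4 and 5904.7 CPM (cat2 gox1) and 5945.8, 4962.2 and 10794.8 CPM (cat2 gox2), so replicate 3 of cat2 gox2 stood apart; its part in the result was not tested.

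The metabolic lists held no call in either direction by edgeR, DESeq2 or limma, except that DESeq2 called 1 indolic glucosinolate gene higher. The median log2 difference was -0.45 over 19 aliphatic glucosinolate genes, none of them positive, and -0.20 over 29 flavonoid and anthocyanin genes, 5 of them positive. Without the library labelled cat2 gox2 high light replicate 2 these medians were -0.35 and -0.02, with 14 flavonoid and anthocyanin genes positive, and without number 3 of every group they were -0.38 and -0.39. It was -0.01 over 31 photorespiration genes, -0.07 over 21 antenna genes, -0.03 over 23 Calvin cycle genes and -0.05 over 34 antioxidant and ascorbate genes, against -0.01 over all genes. Without the library labelled cat2 gox2 high light replicate 2, the antenna and Calvin cycle medians were -0.15 and -0.13. Of these 6 lists, the antenna and Calvin cycle genes had no member at an unadjusted p under 0.05 and the others 1 each. There was also no call among 22 ethylene, 27 abscisic acid, 17 indolic glucosinolate, 11 sugar starvation, 7 hypoxia, 8 high light and UV, 24 expansin and XTH and 15 auxin genes, with medians between -0.09 and 0.24 and 1 to 3 members of each at an unadjusted p under 0.05. This covers the listed members only: the auxin-responsive gene SAUR9, called higher (3.203), is not among the 15. DESeq2 called 1 higher in each of the ethylene, abscisic acid, sugar starvation, hypoxia and auxin lists, and limma 1 in the ethylene list. Without the library labelled cat2 gox2 high light replicate 2 the medians ranged more widely, from -0.31 (auxin) and -0.25 (expansin and XTH) to 0.25 (ethylene), and the sugar starvation median was -0.10 in place of 0.15.

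**Figure D4:**
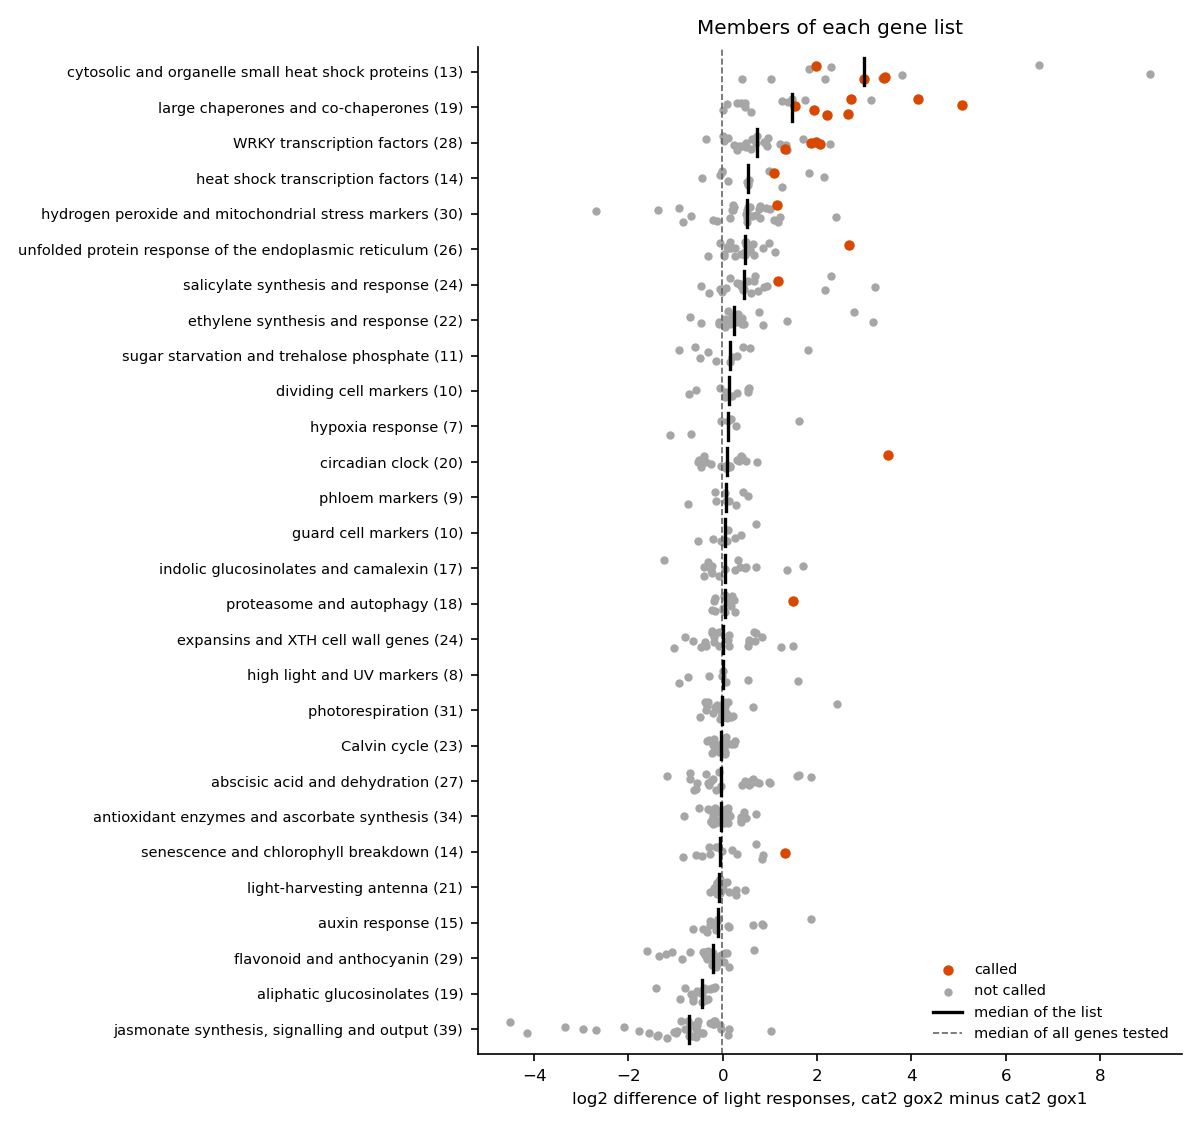
Log2 difference of light responses (horizontal axis) of each tested member of 28 gene lists, the number tested in brackets, with called members in orange, the median of each list as a bar and that of all genes as a dashed line. The small heat shock proteins have the highest median (3.00) and the jasmonate genes the lowest (-0.71). The 2 rightmost points, HSP21 and AT1G52560, had at most 6 counts in each of their other 3 groups, so their size is poorly measured. Both passed the filter on low counts only through cat2 gox2 high light, which fixed their positive sign.

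Markers of other leaf cell types showed no call by edgeR, DESeq2 or limma, and 1 phloem marker alone had an unadjusted p under 0.05. The median log2 difference was 0.05 over 10 guard cell markers, 0.07 over 9 phloem markers and 0.13 over 10 dividing cell markers (-0.04 without the library labelled cat2 gox2 high light replicate 2), and at most 1 member of each list was higher in all 3 repeats. Summed guard cell markers after high light were 3019.8 to 3678.6 CPM (cat2 gox1) and 2930.1 to 4048.9 CPM (cat2 gox2), and the phloem and dividing cell sums of the lines overlapped there as well.

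The structure of the higher genes is given for description. Their annotated transcripts had a median of 3 exons and 22.2% had a single exon, against 5 exons and 15.73% over all genes tested, while the median transcript length was 1775 bases against 1757. They lay on all 5 chromosomes, with 59, 35, 24, 28 and 43 on chromosomes 1 to 5. These were 1.18, 1.22, 0.64, 0.97 and 0.98% of the genes tested there, lowest on chromosome 3. These are descriptions without a test.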

How the data were processed

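The 12 libraries were made with a stranded mRNA kit, per the labels. The tools named in the submitters' processing notes are Trim Galore 0.3.3, TopHat2 2.1.0 and featureCounts of Subread 1.4.6, with TAIR10 as the build; the strand setting is not given in the sources used here, so reads of overlapping genes on opposite strands cannot be told apart. The deposited values are whole-number raw counts of reads per gene, not normalized. Of 33604 entries, 2 are leftover header text with no counts and were left out. The 279 organelle genes are listed at 0.

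The counts were filtered with filterByExpr (minimum count 10, minimum total 15), scaled by TMM and fitted with 1 mean per group over 12 libraries in edgeR 4.0.16 (R 4.3.3). The contrast was tested with the quasi-likelihood test and p-values were adjusted by Benjamini-Hochberg over 18967 genes, threshold 0.05; the steps were tested on simulated data. The biological coefficient of variation was 0.211. SE is the log2 difference divided by the square root of F. Differences within a repeat used log2(CPM + 0.5). At these depths 1 count is at most 0.0526 CPM. P-values measure the spread between pooled leaf samples of separate repeats.

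The labels state that the whole set-up was repeated, so equal replicate numbers were taken to mark a shared repeat. Their deviations from the group means correlated above 0.1 in 4 of 6 pairs within a condition and 9 of 12 across conditions. With unequal numbers it was 4 of 12 and 6 of 24. The library cat2 gox2 high light replicate 1 correlated at -0.27 to -0.19 with the number 1 libraries of the other groups. With their number 3 libraries it correlated at 0.18 to 0.40. Whether its number marks a shared repeat was not tested, which limits the differences within repeats. Alternatives used DESeq2 1.42.0, limma 3.58.1, other scalings, filters, replicate terms and omitted libraries.

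The comparison, its gene lists and tests were chosen with earlier results of these data known. Named genes are GOX1, GOX2, CAT2, the 12 largest differences in each direction among calls whose mean reached 5 CPM with 1 sign in all 3 repeats, and, for each list, up to 2 called members per direction; other names were chosen after their values were seen. The 29 lists hold 595 loci, of which 556 matched their symbol in the RefSeq table of TAIR10.1, 29 were kept by their annotated product and 10 left out. Coordinates and sequences are from RefSeq, TAIR10.1.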

Additional observations from a re-analysis of the deposited data

Results flagged for a closer look

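The light responses of the lines differed by the test of the difference itself in 197 genes. For the named genes, the log2 difference of responses (cat2 gox2 minus cat2 gox1) among chaperones and their relatives was 5.07 for Hsp70b, 4.13 for HSP70T-2, 3.51 for AT1G54050, 3.44 for HSP17.6II, 3.41 for AT1G59860, 3.00 for AT5G37670 and 2.68 for ERDJ3A. HSFB2B, a factor that regulates such genes, differed by 1.08.

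Other named genes with a higher response in cat2 gox2 were EGY3 (4.24), SDR5 (3.78), AT5G42830 (3.58), RVE1 (3.51), CIPK22 (3.35), PP2C5 (3.303), AT5G25450 (3.19), WRKY30 (2.06), WRKY22 (1.98), ATG8E (1.49), WRKY6 (1.31), NPR4 (1.17) and NAC13 (1.15). A lower response was seen in AT3G04000 (-1.88), ATBRXL2 (-1.54), IQD22 (-1.39), NRAMP3 (-1.16), AT3G27870 (-0.97), AT3G03990 (-0.84) and MYB33 (-0.71).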

How the results depend on the processing

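In each alternative at least 192 of the 197 genes kept their sign, but how many passed moved. A gene that an alternative did not test was counted as not keeping its sign. Leaving out 1 library gave 88 to 195 genes, 86 to 187 higher, 2 to 8 lower and 83 to 161 at least 2-fold apart. Without number 3 of every group 38 were called (36 higher, 2 lower, all 38 at least 2-fold), 36 of them among the 197. Total counts without scaling factors gave 119 (113 higher, 106 at least 2-fold), and RLE scaling left 5 lower. DESeq2 gave 538 (483 higher, 55 lower, 315 at least 2-fold; 742 genes had no adjusted p). The causes were not tested. Other filters on low counts and limma kept each of these counts within 1.5 times.

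With the replicate block, 285 genes were called, 22 of them lower; with a replicate block within condition, 432 (381 higher, 51 lower, 293 at least 2-fold). The block shared 189 of the 197 genes. Among the named genes the block ended the call of HSP17.6II, and the block within condition those of HSP17.6II and MYB33.

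Of the 28 named genes past the threshold, 14 to 20 were called under single omissions. The number was 15 without the library labelled cat2 gox2 high light replicate 2. Without number 3 it was 6: AT5G42830, PP2C5, AT3G04000, WRKY30, ERDJ3A and RVE1. GOX2, never called, ranged from -0.22 to 2.94 under single omissions, the former without the library labelled cat2 gox2 high light replicate 2. Restricting the lists to members matched by symbol, an alternative chosen after seeing the data, left 1 call among small heat shock proteins and 5 among large chaperones. With 3 libraries per group, genes near silence under high CO2 are the least precisely measured.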
